A study of Mus musculus with 10 samples.

Results

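Liver tumours of wild-type mice given a carcinogen and a tumour promoter were compared with liver of untreated wild-type mice, gene by gene. The members were the 3 tumour libraries and the 2 liver libraries that the labels call wild-type, 5 of the 10 samples in the series, and all genes with counts entered. The series also holds the same groups from mice lacking the mixed-lineage kinase MLK3, which is encoded by Map3k11. Those 5 libraries served to estimate the spread and, at the end, to test where the wild-type change differed. All mice were C57BL/6 and were killed at 11 months, and the labels say that the genotypes were matched for sex and age. The tumour mice were male pups, 2 weeks old when they got 1 intraperitoneal dose of diethylnitrosamine (DEN), which alkylates DNA, at 5 µg/g. After 1 week without treatment their drinking water held 0.05% PB, a tumour promoter, until death. The abbreviation is read here as phenobarbital, which switches on the nuclear receptor CAR. The controls drank plain water and got no DEN, as far as the labels say.

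The design limits the comparison in 3 ways. No treated liver without a tumour and no untreated tumour was included, so an effect of DEN or PB on hepatocytes and a property of the tumours cannot be told apart. The extraction text speaks of treated liver, and no source used here says how tumour was separated from other liver. In bulk tissue, fewer cells of a type and less RNA per cell cannot be told apart. The design text calls the replicates biological.

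Hepatocytes make most plasma proteins, clear drugs and ammonia, and divide this work along the axis from the portal to the central vein, with Wnt signalling setting the central programme. Growth hormone, acting through its receptor and STAT5, sets the male pattern of liver genes in mice. Liver tumours often express genes of the fetal liver again, and DEN tumours in mice frequently carry mutations that activate the ERK pathway.

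The WT livers had 17694758 and 17442812 counts and the WT tumours 16582080, 13555934 and 14200192. Levels below are CPM, counts scaled to a common library size with TMM factors, a log2 fold change is tumour over liver with its standard error (SE), and each adjusted p comes from the quasi-likelihood test of edgeR over 15811 genes. A gene is called where that value is under 0.05. Map3k11, the gene that sets the genotypes, was at 7.92 and 15.0 CPM in WT liver and 12.2, 9.54 and 14.3 in WT tumours, beside 5.59 ± 0.30 in knockout liver (SD, n = 2) and 8.71 ± 2.5 in knockout tumours (n = 3). Transcript ends were thus still counted in knockout mice, and which part of the gene is deleted is not stated in the labels. Hepatocyte markers were present in all 5 wild-type libraries: their summed level was 76890 and 70450 CPM in liver and 103100, 130900 and 108500 in tumours. Of the 19 tested, Alb, Ahsg and Apoa1 were higher and 5 lower, and the median log2 fold change was -0.35. Liver replicate 1 stood apart from liver replicate 2 in stress and acute phase genes, with 5885 against 2707 CPM over the list of cytosolic heat shock genes. The first principal component of the 5 libraries held 45.1% of the variance and separated tumours from liver. The second held 20.7% and separated the 2 livers, so that 1 liver library can decide a call in genes of that kind.

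Of the 15811 genes tested, 575 (3.64%) were higher and 743 (4.7%) lower in the tumours, 1318 (8.34%) in all, and the median log2 fold change over all tested genes was 0.09. Genes called lower had taken 39.97% and 42.1% of the counts in the livers and took 12.3%, 10.0% and 12.4% in the tumours. Genes called higher went from 7.31% and 7.57% to 24.3%, 28.3% and 24.8%. These shares describe the size of the change and are no test, since the same counts made the calls. The 3 tumours differed from each other about as much as the 2 livers did: over genes of at least 10 CPM the median coefficient of variation was 20.5% in tumours and 18.6% in liver. The libraries of the groups did not overlap in 1315 of the 1318 called genes, and in 5891 (37.3%) of all genes tested.

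**Figure D1:**
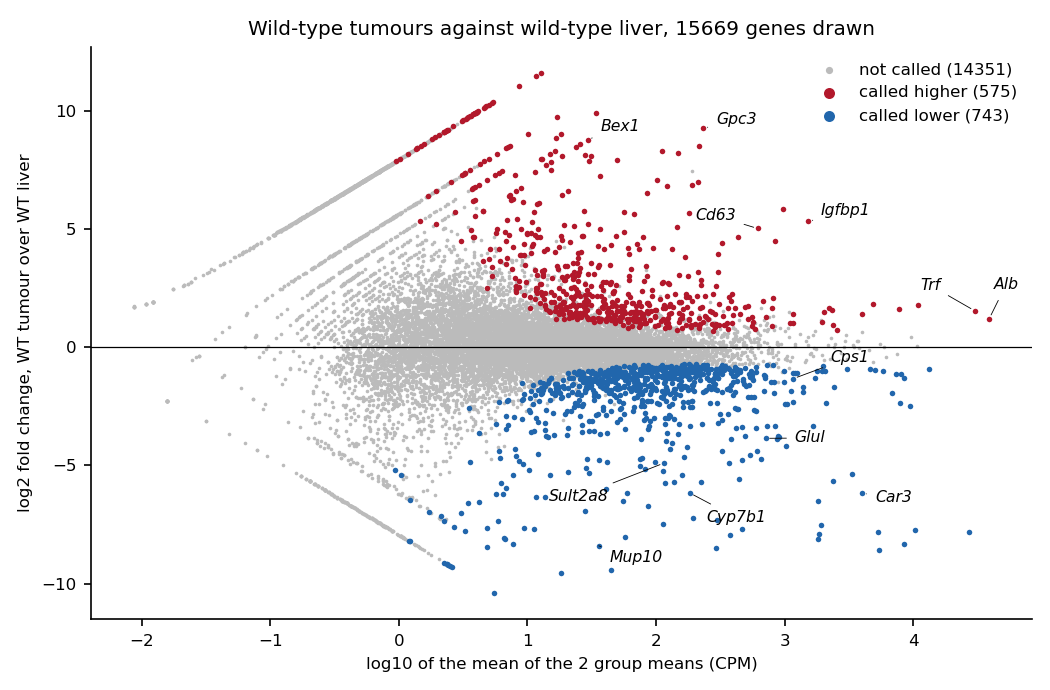
Log2 fold change of WT tumours over WT liver (y) against the log10 mean of both group means in CPM (x), 1 point per tested gene; red and blue points are called higher and lower, grey points are not called, and 142 tested genes without a count in a WT library are not drawn. Albumin (Alb) and transferrin (Trf) lie at the right among the called increases, and the lower right holds abundant transcripts that fell, such as Car3.

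Gene groups were described by how many of their tested members were called, beside 3.64% higher and 4.7% lower over all genes. Groups share members, and a count says nothing on members too low to test. The lists were chosen with earlier results of these data known, so the shares describe them and are no test. The largest shares of members lower were in urea cycle and amino acid breakdown (32 of 56), bile acid synthesis and transport (21 of 36) and Wnt targets with pericentral genes (17 of 31). The largest shares of members higher were in oncofetal and liver tumour markers (13 of 24), ERK pathway outputs (7 of 20) and antigen presentation (9 of 27). That order did not hold without 1 liver: without liver replicate 1 the last 2 had 5 of 24 and 3 of 27 higher, and without liver replicate 2 they had 4 of 23 and 6 of 27, while keratins and biliary markers had 10 of 39 in each case. T, NK and B cell markers (28 tested), neutrophil markers (9) and genes of pancreas, fat, muscle and mesothelium (9) had no member called by edgeR. At an unadjusted p under 0.05 they had 7, 3 and 1 members, beside 21.4% of all tested genes. DESeq2 called 5 of 33 lymphocyte markers and 1 of 15 neutrophil markers higher, and 1 of 14 genes of the other tissues lower. Its totals for lists are all members with a count. Over all chromosomes it called 8.72% higher, but of genes with a DESeq2 adjusted p only, so these shares are not on the same base.

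**Figure D2:**
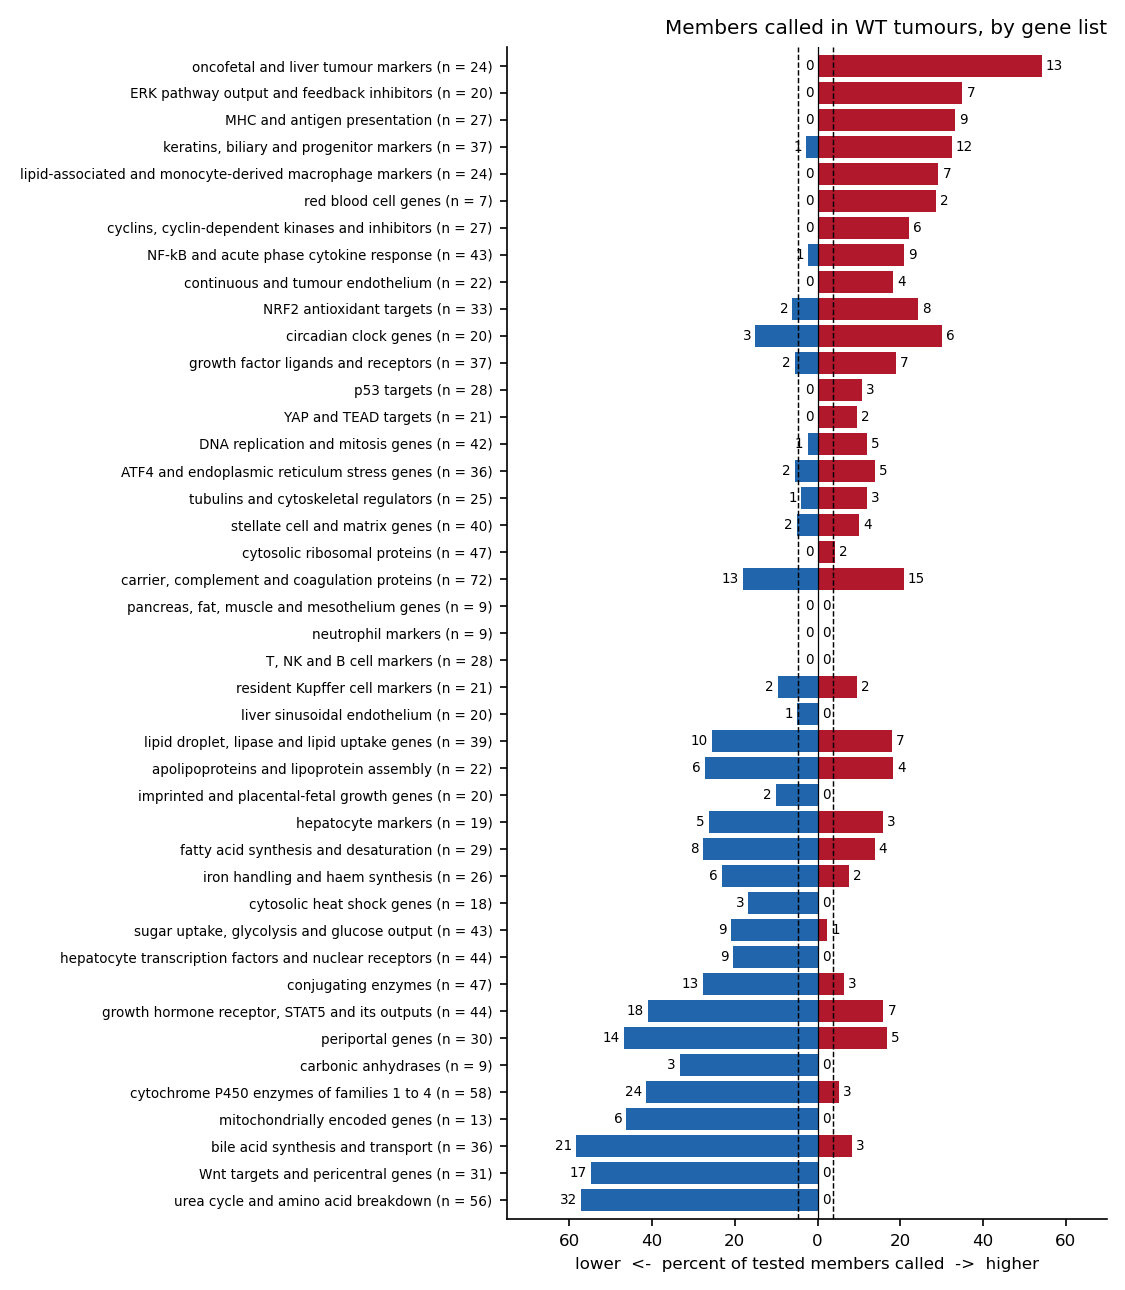
Percent of tested members called higher (red, right) or lower (blue, left) in WT tumours for each of the 43 gene lists, with the number of called members at each bar, the number tested in brackets and dashed lines at the percent of all tested genes called in each direction. Oncofetal markers reach 54.2% higher and amino acid breakdown genes 57.1% lower.

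Tumour markers rose together. The aldo-keto reductase Akr1c18, which inactivates progesterone, stood at 0.754 and 1.20 CPM in the livers and at 262, 284 and 342 in the tumours. Every tumour was far above both livers (log2 fold change 8.23, SE 1.35, adjusted p = 0.00116). Scd2, a fatty acid desaturase of fetal liver, went from 1.95 and 1.01 to 204, 174 and 229 CPM (7.09, SE 1.06, adjusted p = 0.000518). Glypican 3 (Gpc3), a cell surface proteoglycan used as a marker of human liver cancer, was 1.13 and 0.378 CPM in the livers and 441, 610 and 349 in the tumours. Alpha-fetoprotein (Afp), the fetal counterpart of albumin, varied more, with 452, 146 and 534 CPM against 3.02 and 3.47. Its call (adjusted p = 0.0101) was lost when either liver was left out. The whole list of 24 tested markers had a median log2 fold change of 4.52, and none was lower. The 13 called became 7 without liver replicate 2.

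The imprinted growth genes behaved unevenly. H19, a non-coding RNA of fetal liver, reached 692, 67.1 and 386 CPM against 3.14 and 1.20, without overlap but also without passing the test (adjusted p = 0.0691). Meg3, a non-coding RNA of another imprinted cluster, stood at 316 and 125 CPM in tumour replicates 1 and 3 and at 12.01 in tumour replicate 2, which lay below both livers (19.2 and 12.2). Igf2, a fetal growth factor, was at 12.6, 0.146 and 3.34 CPM in the tumours and at most 0.0628 in the livers (adjusted p = 0.17). Of the Igf2 3' windows, 100% also occur in the predicted gene Gm49394, so its level is uncertain. The low tumour was the same replicate for all 3 genes. Of 20 tested genes in that list edgeR called none higher. An unadjusted p under 0.05 in either direction was found for 7, beside 21.4% of all tested genes. DESeq2 called 3 of 23 higher, and edgeR called 1 higher without tumour replicate 2. In the list 2 were lower: Ddc, which makes dopamine and serotonin, and the matrix proteoglycan decorin (Dcn).

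Outputs of the ERK pathway were higher. Dusp6, a phosphatase that ERK induces and that switches ERK off, was 52.2 and 74.2 CPM in the livers and 204, 199 and 215 in the tumours, a tight rise (log2 fold change 1.71, SE 0.28, adjusted p = 0.00128). Dusp5, a nuclear phosphatase of the same family, went from 3 and 2 counts to 42.0, 26.0 and 22.7 CPM. The 7 called members included Ccnd1 and Hbegf, none of the 20 tested was lower, and the median log2 fold change was 1.76. The 7 became 4 without liver replicate 2.

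Growth factor ligands and receptors split by direction. Betacellulin (Btc) and heparin-binding EGF (Hbegf), both ligands of the EGF receptor, had 1 count in liver replicate 1 and none in replicate 2. In the tumours Btc reached 14.7, 20.5 and 7.38 CPM and Hbegf 16.9, 13.3 and 4.36. Their receptor fell: Egfr was 913 and 576 CPM in the livers and 133, 68.1 and 162 in the tumours (log2 fold change -2.62, SE 0.32, adjusted p = 0.000105). Fgfr2, a receptor for fibroblast growth factors, rose from 18.2 and 12.4 to 74.3, 78.7 and 78.3 CPM (2.33, SE 0.40, adjusted p = 0.00153). The insulin receptor (Insr) was higher in every tumour, at 156, 179 and 168 against 86.9 and 76.3 CPM. In all, 7 of 37 members were higher and 2 lower.

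Of 27 cyclins, cyclin-dependent kinases and inhibitors 6 were higher and none lower, with a median log2 fold change of 1.00, and the 6 became 4 without liver replicate 2 and 9 by DESeq2. Beside G1 genes the 6 include Cdk1 and Ccna2, which act in S phase and mitosis. Cyclin D1 (Ccnd1), which drives cells out of G1 with CDK4 or CDK6, was 14.7 and 6.24 CPM in the livers and 79.1, 63.5 and 69.8 in the tumours (log2 fold change 2.76, SE 0.50, adjusted p = 0.00235). Its partner Cdk6 rose from 30.9 and 47.1 to 108, 105 and 118 CPM. Cdkn2a, which encodes the inhibitors p16 and p19ARF, rose as well, from 0.251 and 1.64 to 13.7, 24.1 and 35.1 CPM (4.67, SE 0.90, adjusted p = 0.00382). Cdkn1a, the inhibitor p21, was not called and differed between the livers (58.1 and 7.001 CPM), and the tumours (33.6, 93.6 and 38.7) spanned the higher of them. Of 42 tested replication and mitosis genes 5 were higher and 1 lower, and the list's median was 2.91 on the log2 scale. DESeq2 called 20 of 44 such genes higher, and leaving out 1 library gave between 2 and 4. The proliferation marker Mki67 stood at 10.2, 7.35 and 4.11 CPM against 0.126 and 0.883 (adjusted p = 0.178), and Myc, which regulates growth, at 3.07, 5.83 and 1.41 against at most 0.126 (adjusted p = 0.12).

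The growth hormone axis fell at several levels. The receptor Ghr (chromosome 15, 3317760 to 3583492, minus strand, GRCm38) was 419 and 467 CPM in the livers and 90.1, 90.4 and 75.5 in the tumours (log2 fold change -2.38, SE 0.27, adjusted p = 4.42e-05). Insulin-like growth factor 1 (Igf1, chromosome 10, 87858265 to 87937042, plus strand), the main product of hepatic growth hormone signalling, fell from 641 and 826 to 127, 109 and 123 CPM (-2.62, SE 0.26, adjusted p = 1.84e-05). Its binding protein Igfbp1 went the other way, from 39.2 and 111 to 2163, 4440 and 2366 CPM (5.32, SE 1.14, adjusted p = 0.00798), a call that was lost without liver replicate 1. Genes with a male pattern fell as well: the fatty acid elongase Elovl3 stood at 391 and 376 CPM in the livers and at 2.34, 1.68 and 3.66 in the tumours (-7.22, SE 0.40, adjusted p = 6.88e-08). Some genes with a female pattern rose, such as the cytochrome P450 Cyp2b9, which had 0 and 2 counts in the livers and 71.2, 70.7 and 62.6 CPM in the tumours. Cyp2a4, a steroid hydroxylase, was at 2228, 1568 and 1923 CPM against 24.0 and 42.4, but 44.3% of the 50-base windows at its annotated 3' end also occur in another gene, so reads of near-identical copies may be split. Of the 44 tested members of this group 18 were lower and 7 higher.

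The major urinary proteins (Mup), pheromone carriers of male liver that growth hormone pulses maintain, fell as a family. Their summed level was 130500 and 135900 CPM in the livers and 3510, 1354 and 5582 in the tumours. Of 21 tested Mup genes 18 were lower and none higher, with a median log2 fold change of -7.66. Shared 3' windows were examined for 18 of the tested Mup genes. Of these, 14 shared at least 50% with another gene, so single members are uncertain. Mup6, with 4.21% shared, fell from 596 and 580 to 5.63, 2.26 and 3.21 CPM. Mup20, the pheromone darcin, kept a higher level than the rest, at 2400, 941 and 5095 CPM against 8427 and 13120 (log2 fold change -1.94, SE 0.47, adjusted p = 0.0164).

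Of 44 tested transcription factors and nuclear receptors of the hepatocyte 9 were lower and none higher. The median change was -0.56 on the log2 scale, and 17 of the 44 lay above 0. The farnesoid X receptor Nr1h4, the bile acid sensor, fell from 89.5 and 106 to 46.0, 33.6 and 43.4 CPM (-1.25, SE 0.26, adjusted p = 0.00591). Tbx3, a Wnt target, fell from 40.02 and 81.1 to 4.01, 3.64 and 7.89 CPM. The core factors Hnf4a (221 and 178 against 121, 123 and 123 CPM, adjusted p = 0.0582) and Cebpa (416 and 542 against 250, 266 and 320, adjusted p = 0.074) lay lower in every tumour without passing the test. With 1 tumour left out, the number of factors called lower ranged from 4 without tumour replicate 1 to 8 without tumour replicate 3. It was 12 by DESeq2 and 10 with a minimum mean of 10 CPM. Leaving out either liver also lowered the number.

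Genes of both liver zones fell. Around the central vein, glutamine synthetase (Glul) stood at 1159 and 1502 CPM in the livers and at 119, 55.5 and 102 in the tumours, and ornithine aminotransferase (Oat) at 583 and 854 against 41.2, 10.3 and 20.2. The ethanol-oxidizing Cyp2e1 fell from 1704 and 2160 to 184, 51.0 and 82.4 CPM (log2 fold change -4.19, SE 0.45, adjusted p = 2.86e-05). The feedback inhibitor Axin2, read as a measure of Wnt activity, was 12.7 and 10.9 CPM against 1.25, 0.0728 and 0, a call (adjusted p = 0.0372) lost without either liver, tumour replicate 2 or tumour replicate 3. Lgr5, a receptor for R-spondins, did not pass (8.55 and 2.78 against 6.10, 6.92 and 2.57 CPM, adjusted p = 0.959). Near the portal vein, the P450 enzyme Cyp2f2 fell from 1108 and 968 to 39.6, 47.6 and 46.3 CPM, a narrow range among the tumours (-4.54, SE 0.28, adjusted p = 1.33e-07). Of the 31 pericentral and 30 periportal genes tested, 17 and 14 were lower. None of the pericentral and 5 of the periportal genes were higher. Among those 5 was E-cadherin (Cdh1), a junction protein, at 579, 615 and 620 against 138 and 137 CPM.

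Amino acid breakdown fell across the group, 32 of 56 genes, with a median log2 fold change of -1.08 and no member higher. Bhmt, which remakes methionine from homocysteine, stood at 1514 and 1760 CPM in the livers and at 92.1, 111 and 131 in the tumours (-3.88, SE 0.27, adjusted p = 3.84e-07). Gnmt, which uses up S-adenosylmethionine, fell from 2446 and 3639 to 344, 199 and 362 CPM. The glucose-6-phosphatase G6pc, which releases glucose from the hepatocyte, fell from 182 and 318 to 12.9, 12.01 and 20.7 CPM (-4.04, SE 0.30, adjusted p = 9.15e-07). It was 1 of 9 members lower among 43 genes of sugar uptake, glycolysis and glucose output, and 1 was higher, the glycogen synthase Gys2. The 9 became 4 without tumour replicate 1 and 5 without liver replicate 2 or tumour replicate 2.

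**Figure D3:**
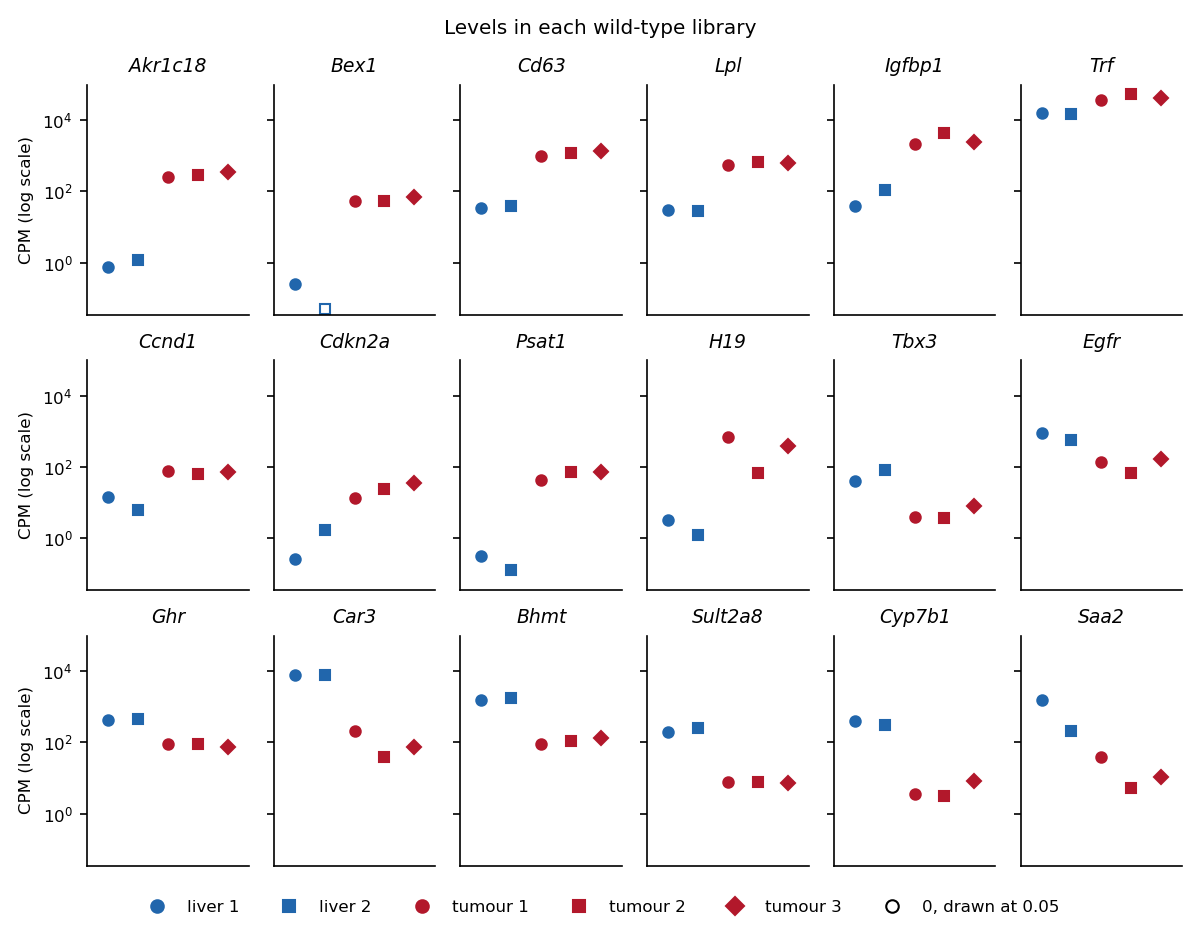
Level of 18 genes in each WT library (CPM, log axis); blue symbols are the 2 livers, red symbols the 3 tumours, and open symbols mark a level of 0 drawn at 0.05. The groups separate in every panel drawn. For Sult2a8 the tumours lie at 7.31 to 7.502 CPM, while for H19 they spread from 67.1 to 692.

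Bile acid synthesis and uptake were lower, with 21 of 36 genes down and 3 up. Cyp7b1 hydroxylates oxysterols in the alternative route of synthesis. It stood at 408 and 315 CPM in the livers and at 3.595, 3.13 and 8.34 in the tumours (log2 fold change -6.17, SE 0.41, adjusted p = 2.51e-07). Cyp27a1, a sterol 27-hydroxylase of the same route, fell from 242 and 201 to 31.4, 28.0 and 31.4 CPM. The uptake carrier Slco1b2 fell from 1461 and 1920 to 173, 91.2 and 101 CPM (-3.80, SE 0.34, adjusted p = 5.26e-06). The 3 members that rose were exporters of the ABC family. Abcg5, a sterol pump, went from 16.7 and 21.5 to 60.5, 58.1 and 97.8 CPM, and Abcb1a and Abcc2 carry drugs and conjugates. Of the same family, Abcb11, Abcb4 and Abcg2 were called lower. Abcc2 lost its call without liver replicate 1, tumour replicate 2 or tumour replicate 3.

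Among 58 tested cytochrome P450 genes of families 1 to 4, 24 were lower and 3 higher (Cyp2b9, Cyp2a4 and Cyp2a5). Cyp2b10, the usual reporter of CAR activation by phenobarbital, was not called: it had 2.70 and 0 CPM in the livers and 0, 0.437 and 3.59 in the tumours. In knockout mice it stood at 0.629 ± 0.89 CPM in liver (n = 2) and at 95.7 ± 17 in tumours (n = 3), and the difference between the genotypes' changes did not pass the test (adjusted p = 0.07). Conjugating enzymes also fell, with 13 of 47 lower and 3 higher. The sulfotransferase Sult2a8 stood at 199 and 247 CPM in the livers and at 7.31 to 7.502 in the 3 tumours, which hardly differed from each other (-4.90, SE 0.24, adjusted p = 5.86e-08). Carbonic anhydrase 3 (Car3), an abundant cytosolic enzyme of male liver, fell from 8011 and 7905 to 214, 38.0 and 76.4 CPM (-6.18, SE 0.63, adjusted p = 2.11e-05).

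Plasma proteins did not fall as a group. Transferrin (Trf), the iron carrier, was 15390 and 15300 CPM in the livers and 36750, 55510 and 42020 in the tumours (log2 fold change 1.54, SE 0.28, adjusted p = 0.00284). Of its 3' windows 37% also occur in the predicted gene Gm20425, so its level is uncertain to that extent. Albumin (Alb) rose from 22800 and 24460 to 50500, 62170 and 51020 CPM, and the fetal protein fetuin A (Ahsg) from 4586 and 5286 to 15010, 19940 and 15960. Apolipoprotein A1 (Apoa1), the main protein of HDL, rose from 3803 and 3779 to 9705, 13960 and 11290 CPM, and the copper protein ceruloplasmin (Cp) from 1296 and 1080 to 2939, 3877 and 3684. Others fell, among them the protease inhibitor Serpina3k (17350 and 14530 against 2729, 2762 and 3127 CPM) and complement C6 (282 and 265 against 29.8, 10.6 and 23.6). Of 72 tested carrier, complement and coagulation proteins 15 were higher and 13 lower, and the 15 became 9 without liver replicate 1 and 8 without liver replicate 2. Acute phase members carried the mark of liver replicate 1: serum amyloid Saa2 stood at 1513 and 215 CPM in the livers and at 38.0, 5.24 and 10.6 in the tumours, and the 6 apolipoprotein-list members called lower became 0 without that library.

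Promoters were searched for letters bound by factors of liver and growth genes, because secreted liver proteins moved in both directions. The windows are the 250 bases before each start in the RefSeq table (build GRCm38.p6), searched on both strands, and the table held a promoter for 10940 of the tested genes and for 156 of the 207 named ones. The HNF1 letters, GTTAATNAT, were in 8 of 526 promoters of genes called higher (1.52%), 5 of 728 of genes called lower (0.687%), 74 of 14007 of all tested genes (0.528%) and 0.737% of all promoters in the table. AP-1 letters (TGANTCA) were in 5.89% of promoters of genes called higher and 5.49% of those called lower, against 4.93% of all tested. For STAT (TTCNNNGAA) the shares were 5.7%, 6.46% and 6.12%, for TCF (CTTTGAA) 3.8%, 3.43% and 3.32%, and for E2F (TTTNGCGC) 1.9%, 1.37% and 1.82%, in the same order. Several promoters can belong to 1 gene, and a match is a description of letters and not of binding.

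The windows below show the HNF1 letters in capitals on the gene's strand, 5′ to 3′, with up to 35 bases on each side, for the 5 named genes that rose and the 2 that fell. Igfbp1 and Cp hold them in the reverse direction. All 7 genes are on the plus strand, and none of the other 4 motifs overlaps these letters. Of the Sult2a5 3' windows, 43.5% also occur in other sulfotransferase genes.
Afp, higher, chr5:90490574-90490652: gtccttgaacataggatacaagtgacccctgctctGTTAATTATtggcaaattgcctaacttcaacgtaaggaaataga
Alb, higher, chr5:90460803-90460869: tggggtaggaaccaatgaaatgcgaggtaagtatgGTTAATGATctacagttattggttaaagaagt
Cp, higher, chr3:19956822-19956900: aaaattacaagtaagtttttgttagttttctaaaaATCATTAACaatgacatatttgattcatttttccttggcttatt
Igfbp1, higher, chr11:7197693-7197771: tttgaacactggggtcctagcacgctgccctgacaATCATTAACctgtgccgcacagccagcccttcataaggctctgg
Sult2a5, higher, chr7:13623904-13623966: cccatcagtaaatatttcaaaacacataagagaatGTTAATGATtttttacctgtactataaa
G6pc, lower, chr11:101367466-101367538: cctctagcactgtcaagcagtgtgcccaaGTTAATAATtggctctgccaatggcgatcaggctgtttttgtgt
Slco1b2, lower, chr6:141629417-141629495: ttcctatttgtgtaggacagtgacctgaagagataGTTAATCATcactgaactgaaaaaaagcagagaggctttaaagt
The letters begin 32 bases before the start in Alb, 59 in Igfbp1, 105 in Afp, 66 in Slco1b2 and 221 in G6pc. Genes of both directions thus carry them.

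Lipid handling changed in both directions. Lipoprotein lipase (Lpl), which frees fatty acids from circulating lipoproteins and is low in adult hepatocytes, stood at 29.8 and 28.6 CPM in the livers and at 536, 675 and 646 in the tumours (log2 fold change 4.41, SE 0.48, adjusted p = 3.25e-05). Plin5, which tethers lipid droplets to mitochondria, fell from 86.5 and 93.6 to 8.65, 16.0 and 19.3 CPM. Thrsp, which promotes fatty acid synthesis, fell from 332 and 162 to 19.0, 20.8 and 50.4 CPM. In the list of lipid droplet, lipase and uptake genes 7 of 39 were higher and 10 lower, and the 7 became 1 without liver replicate 2, 3 without liver replicate 1 and 4 without tumour replicate 3.

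Stress programmes were mixed. Srxn1, a sulfiredoxin induced by NRF2, was 63.2 and 62.6 CPM in the livers and 292, 415 and 455 in the tumours (log2 fold change 2.62, SE 0.37, adjusted p = 0.000319). In all, 8 of 33 NRF2 targets were higher and 2 lower, and the 8 became 2 without liver replicate 1, 4 without tumour replicate 2 and 5 without tumour replicate 3. Among 36 tested genes of ATF4 and endoplasmic reticulum stress, 5 were higher and 2 lower (Cth and Shmt2). Half-way down that list the change was small, at a median of 0.18 on the log2 scale. The 5 stayed 5 without tumour replicate 1, became 2 without tumour replicate 2 or 3, and were 9 by DESeq2. Without liver replicate 2 fewer were called higher than in any of these fits. Psat1, an enzyme of serine synthesis that ATF4 induces, rose from 5 and 2 counts to 43.7, 71.0 and 72.8 CPM. Trib3, a pseudokinase under ATF4, rose from 15.0 and 4.67 to 125, 258 and 161 CPM (4.21, SE 0.56, adjusted p = 0.000215). Heat shock genes called lower (Hspb1, Hspb8 and Hsp90aa1) were not called without liver replicate 1, whose level of Hspb1 was 231 CPM beside 56.0 in liver replicate 2.

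Clock genes were opposed in direction. Per3, a repressor of the clock, was 3.77 and 8.64 CPM in the livers and 35.8, 64.3 and 57.4 in the tumours, while the activator Arntl was 45.4 and 30.0 against 2.71, 0.874 and 5.00. Nfil3, a repressor in the same loop, fell from 56.2 and 41.4 to 3.33, 2.11 and 6.54 CPM. Of 20 clock genes 6 were higher and 3 lower, and the 6 became 1 without liver replicate 2. The labels do not give the hour of killing, and its part in these values was not tested. Mitochondrially encoded transcripts took 7.42 ± 0.21% of counts in liver (SD, n = 2) and 4.69 ± 0.58% in tumours (n = 3), and 6 of the 13 tested were lower. The 6 became 4 without liver replicate 1, 3 without liver replicate 2 and 10 by DESeq2.

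Markers of other cell types moved in part. Of 37 keratins, biliary and progenitor markers, 12 were higher and 1 lower, and their summed level was 879 and 975 CPM in the livers and 3321, 3595 and 3383 in the tumours. Krt18, a keratin of hepatocytes and ducts alike, rose from 84.6 and 79.8 to 240, 295 and 265 CPM (log2 fold change 1.70, SE 0.24, adjusted p = 0.000317). Krt19, which marks bile ducts and was picked after its values were seen, stood at 0 and 1.39 CPM in the livers and at 1.15, 0.291 and 0.128 in the tumours. Macrophage genes tied to lipid uptake had 7 of 24 higher, with summed levels of 1786 and 1487 against 4185, 3892 and 4391 CPM, and the 7 became 4 without tumour replicate 1 and 13 by DESeq2. Lpl and Cd63 are both in that list and account for much of the rise of its sum. Which cells made its members was not tested, so the sum does not measure macrophages. The lysosomal membrane protein Cd63 rose from 34.0 and 39.8 to 1008, 1213 and 1373 CPM (5.02, SE 0.67, adjusted p = 0.000215), and Gpnmb, a glycoprotein of lipid-laden macrophages, from 3.39 and 0.568 to 98.3, 30.1 and 27.3. Resident Kupffer cell markers had 2 of 21 higher and 2 lower. Their summed level, 1004 and 1091 CPM in liver, overlapped the 1514, 1057 and 1449 of the tumours, and the scavenger receptor Cd163 fell from 13.5 and 17.8 to 0.0521, 0.146 and 1.73 CPM.

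Antigen presentation rose in 9 of 27 genes, with none lower and a median log2 fold change of 1.49. H2-Aa, a chain of MHC class II, was 17.8 and 28.6 CPM in the livers and 128, 84.5 and 91.3 in the tumours (2.12, SE 0.39, adjusted p = 0.00284), and the count of 9 became 3 without liver replicate 1. Lymphocyte markers summed to 38.5 and 73.2 CPM in the livers and to 129, 157 and 243 in the tumours, with none of 28 called. Of 22 genes of continuous and tumour endothelium 4 were higher and none lower, which became 1 without liver replicate 2 and 2 without tumour replicate 1 or 3. Esm1, a gene of sprouting endothelium, rose from 3.08 and 7.57 to 45.6, 45.2 and 42.0 CPM. Of 20 sinusoidal endothelial genes only Cyp26b1, which degrades retinoic acid, was lower (238 and 84.3 against 5.94, 0.583 and 7.06 CPM). Matrix genes had 4 of 40 higher and 2 lower, and none of the 6 was called without liver replicate 2. Beta-globin transcripts of blood were higher too, and globin took 0.176 ± 0.011% of counts in liver (n = 2) and 0.406 ± 0.14% in tumours (n = 3). The part of other cells in the tumour-to-liver differences was not tested.

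Some genes were found in every tumour and in neither liver. In all, 12 genes had 0 counts in both livers and at least 5 CPM in each tumour. Of these edgeR called 11, beside 3.64% of all tested genes called higher. The same counts picked the genes, so that number is no test of them. With 3 counts per library as the limit, a mean of 0.189 CPM that covers counting error of independent reads only, the mitotic gene Psrc1 (13.6, 45.2 and 11.0 CPM) was at least 123-fold higher. The aldose reductase Akr1b7 (6.56, 8.37 and 16.7 CPM) was at least 55.8-fold higher. Bex1, an X-linked adaptor of neural and tumour cells, came close to this pattern, with 4 and 0 counts in the livers and 53.3, 52.4 and 70.5 CPM in the tumours. The reverse was found for 1 pseudogene, Mup-ps2.

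A few genes set the tumours apart from each other. The protease inhibitor Wfdc12 was at 12.3, 62.04 and 1.60 CPM and at 0 in both livers, and its call was lost without tumour replicate 2. Immunoglobulin heavy chain Ighm, a product of B cells, was at 8.23, 3.79 and 81.1 CPM, and Cyp2j5, which oxidizes arachidonic acid, at 35.6, 7.21 and 131. Snhg18 and Cyp2d41-ps, both on chromosome 15, were highest in tumour replicate 2, at 74.0 against 14.7 and 3.14 and at 54.0 against 20.7 and 2.95 CPM.

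Genes of chromosome 15 were shifted upwards in tumour replicate 2 and, less so, in tumour replicate 3. The 578 tested genes of this chromosome had a median log2 fold change of 0.34. Of them 7.09% were higher and 3.46% lower, beside 3.64% and 4.7% of all genes. The breakdown by library was added after this was seen. Relative to the median of all genes in the same library, the chromosome 15 median was 0.575 in tumour replicate 2, 0.188 in replicate 3 and 0.046 in replicate 1 (log2 of CPM + 1, genes of at least 10 CPM). The other chromosomes lay between -0.09 and 0.11 in tumour replicate 2 and between -0.095 and 0.118 in tumour replicate 3. In tumour replicate 1 chromosomes 1 (0.205) and X (0.21) lay above chromosome 15, and over all tested genes X had a median log2 fold change of 0.26 with 4.9% higher. In tumour replicate 2, 76.9% of chromosome 15 genes were above the library's median. Along the chromosome, the median in tumour replicate 2 was -0.045 over the first 20 Mb. It was 0.73, 0.53, 0.59, 0.63 and 0.92 over the next 5 windows of the same length. Over the last of these windows it was 0.574 in tumour replicate 3 and 0.31 in tumour replicate 1. For the whole chromosome, the 3 tumours of knockout mice gave medians between -0.051 and -0.004. Without tumour replicate 2, 3.85% of chromosome 15 genes were higher, beside 2.34% of all genes. DNA was not measured, and copy number was not tested.

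**Figure D4:**
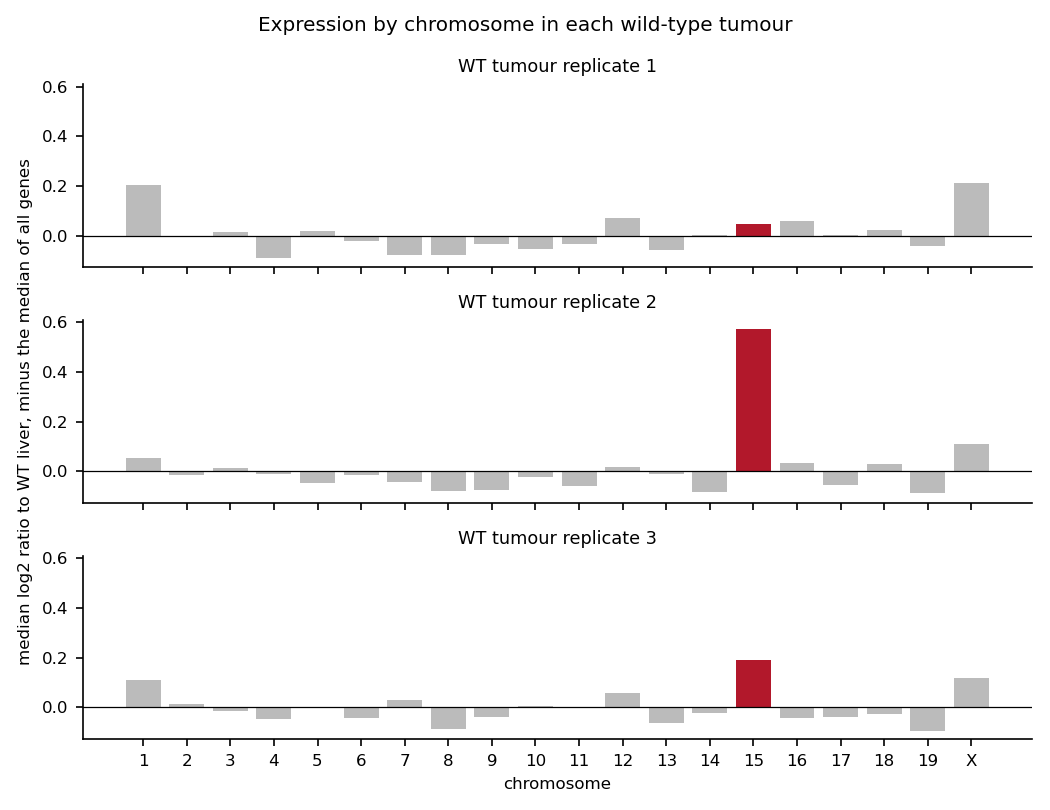
Median log2 ratio to WT liver of the genes on each autosome and on X, minus the median of all genes in the same tumour, for the 3 WT tumours; red marks chromosome 15. In tumour replicate 2 the red bar stands at 0.575 and every other chromosome between -0.09 and 0.11.

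The change differed between genotypes for 251 genes (1.59% of those tested), by a test of the interaction in the same model. Of these, 240 were called in the wild-type comparison: 184 fell and 56 rose, each by more than in knockout mice on the fitted scale. Sult2a8 was 223 ± 33 CPM in WT liver (n = 2) and 7.44 ± 0.11 in WT tumours (n = 3), but 197 ± 13 in knockout liver (n = 2) and 181 ± 37 in knockout tumours (n = 3). Elovl3 fell from 384 ± 11 to 2.56 ± 1.0 in wild-type and stood at 176 ± 21 and 138 ± 56 in knockout mice. Smox, which oxidizes spermine, rose from 1.01 ± 0.98 to 54.3 ± 9.7 CPM in wild-type and stood at 4.81 ± 2.1 and 10.7 ± 2.8 in knockout mice. Unc5b, a netrin receptor, rose from 6.02 ± 2.4 to 66.3 ± 25 CPM, beside 13.2 ± 4.5 and 12.7 ± 2.4. Interaction calls were made for 12 of 31 pericentral genes, 14 of 44 growth hormone outputs and 14 of 58 P450 enzymes. None of 24 tumour markers had such a call, but with 1.59% of all genes called, that does not show that they changed alike. Their median log2 fold change was 4.52 in wild-type and 3.06 in knockout mice, where none of the 24 was called. In the knockout comparison by itself 12 genes were called, and a gene that misses the test there is not shown to be unchanged.

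**Figure D5:**
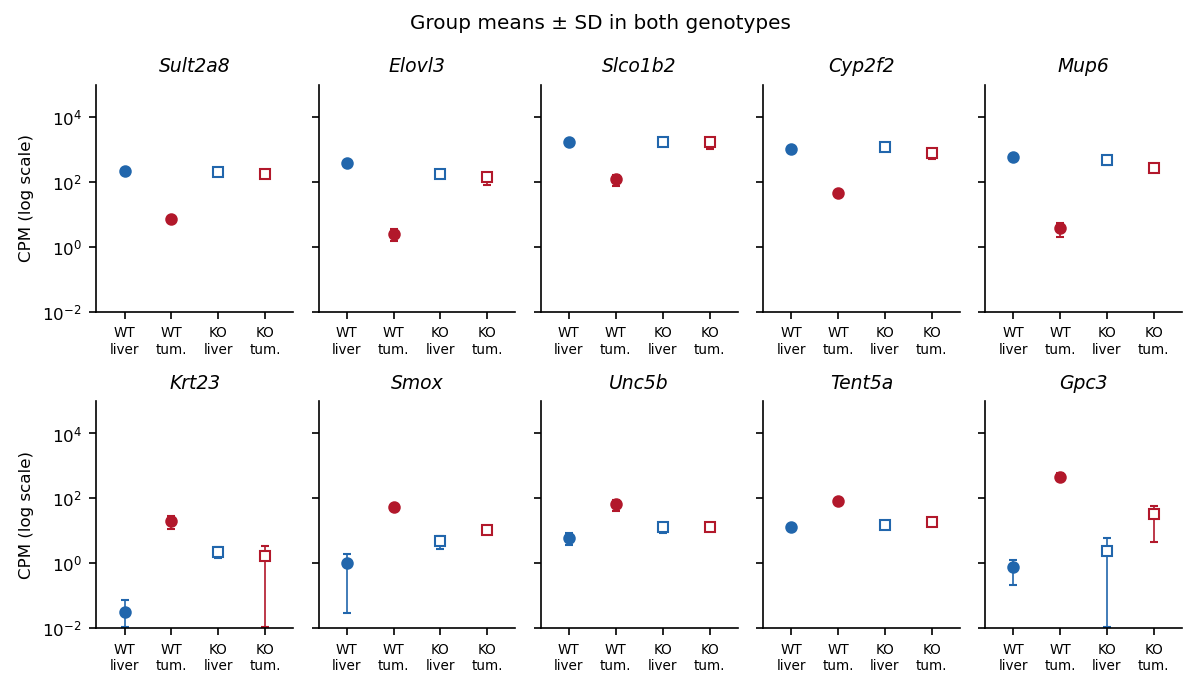
Mean level with SD in the 4 groups (CPM, log axis; 2 libraries per liver group and 3 per tumour group) for 10 genes; filled circles are WT, open squares knockout (KO), blue is liver and red tumour, and bars that would pass 0 end at the axis. Sult2a8, Elovl3, Slco1b2, Cyp2f2 and Mup6 are lowest in WT tumours, Krt23, Smox, Unc5b and Tent5a are highest there, and the tumour marker Gpc3 lies above liver in both genotypes without an interaction call.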

How the data were processed

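The authors deposited a table of read counts per gene, whole numbers that were not normalized. Per the labels' protocols, each library came from 50 ng of RNA and a stranded QuantSeq 3' kit (FWD), which reads transcript ends. Reads were processed with BWA and featureCounts on mm10, per the submitters' processing notes. Their versions, the annotation release and the strand setting were not given in the sources used here. No molecular identifiers are mentioned, so limits from a count of 0 cover counting error only.

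Of 39056 genes, 19275 had a count in a WT library. Counts were analysed with edgeR 4.0.16 in R 4.3.3: filterByExpr kept 15811 genes, TMM scaled the libraries, and all 10 libraries entered 1 quasi-likelihood fit (4 group terms, residual df 6), so that the groups share 1 estimate of the spread. A gene was called at an adjusted p (Benjamini-Hochberg) under 0.05. The model was checked on simulated counts. Replicates differed by far more than counting noise (chi-square per degree of freedom at least 39.8), so none was counted as a duplicate. Symbols and positions were matched by identifier to GENCODE M21 on GRCm38 (38872 genes). The share of 3' windows found in other genes was counted over 50-base windows of the last 500 annotated bases.

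The members and the 43 lists were chosen with earlier results of these data known. Named genes were the 12 largest changes per direction, the 10 most abundant called genes per direction, up to 3 called members per list and direction (the 2 of smallest p where none was called), the 6 most variable among the tumours, the 5 clearest interactions per direction, and 20 genes always given. The first pair of rules asks for 10 CPM, separated groups and a proper symbol. Genes named outside the rule were chosen after their values were seen, as were the breakdowns of chromosome 15. Alternatives were DESeq2 1.42.0, other scalings and filters, the 5 WT libraries alone, a minimum fold change of 1.5, a replicate block and leaving out each library. Results for 2 genes are not reported here.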

Additional observations from a re-analysis of the deposited data

Results flagged for a closer look

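For 10 genes called in the wild-type comparison the tumour-to-liver change differed between wild-type and knockout mice by an interaction test (edgeR's quasi-likelihood test). Values are the wild-type minus the knockout log2 fold change. They were below 0 for the sulfotransferase Sult2a8 (-4.79), the elongase Elovl3 (-6.87) and the urinary proteins Mup10 (-7.82), Mup9 (-7.18) and Mup6 (-6.48). They were above 0 for the predicted gene Gm28438 (3.08), the netrin receptor Unc5b (3.51), the spermine oxidase Smox (4.6), the keratin Krt23 (9.43) and Tent5a (2.29), which encodes a poly(A) polymerase. Krt23 had 1 count in the 2 WT livers, so its value depends on the prior count of the fit. Of their 3' windows, Mup10 shares 100%, Gm28438 99% and Mup9 85.8% with other genes, so their own values are uncertain.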

How the results depend on the processing

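With RLE or upper quartile scaling, a minimum mean of 10 CPM or the 5 WT libraries alone, the counts of genes higher (579 to 625) and lower (615 to 779) stayed within 1.5 times the 575 and 743 reported. DESeq2 called 1285 higher (all 575 among them) and 1113 lower, and in the interaction 244 above 0 and 461 below 0, beside 58 and 193. Without the filter on low counts 925 were higher, and the interaction gave 203 and 432. Asking for a fold change above 1.5 left 321 higher and 414 lower. Leaving out each library in turn gave 365 to 457 higher, 505 to 652 lower, and 31 to 72 and 138 to 215 in the interaction. The genes higher were 365 without tumour replicate 2 and 378 without liver replicate 1, and interactions above 0 were 31 and 34 without tumour replicates 2 and 3 and 33 without knockout liver replicate 2 or knockout tumour replicate 3; such fits take the lone liver to vary like the other groups. Leaving out 1 tumour kept 343 to 424 of the 575 genes higher and 566 to 597 of the 743 lower. Leaving out either liver kept fewer of both and also called genes that the main fit did not. With a replicate block 455 were higher and 620 lower, with 52 and 203 in the interaction. The deviations of same-numbered libraries correlated by -0.006 to 0.024, so the numbers do not pair the samples. Of 187 called genes among the 207 named, 126 stayed called under every alternative run. Signs turned for 4 genes that were not called, and the cause was not tested. With the replicate block Ighm was at -0.22. Leaving out each library in turn gave -1.29 to 1.99 for Ighm, -2.81 to 7.34 for Cyp2b10, -0.72 to 0.90 for Lgr5 and -0.075 to 2.98 for Cdkn1a. With 2 livers and a coefficient of variation of 71.8%, small changes in weakly expressed genes were not detectable.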
